A study of Mus musculus with 13 samples.

Results

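The dense origin clusters of control cells are places where replication origins lie packed side by side. Peaks of the 3 control lists that shared at least 1 bp were merged on the nuclear chromosomes, regions with a peak in at least 2 lists were kept, neighbouring regions with centres at most 7 kb apart were chained, and chains of 5 or more regions were called clusters. The 73169 control regions formed 45097 chains, of which 1507 were clusters. These clusters held 10740 regions, or 14.7% of the control regions. The members were thus chosen by the control peaks themselves, so all control values below are a description. The PhenDC3 lists, the sequence, the gene annotation and the RNA took no part in the choice.

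SNS-seq reads out short nascent strands, the first DNA made at a newly fired origin, and was applied to CGR8 cells, a mouse embryonic stem (ES) cell line. Control cells grew for 48 h in 0.5% DMSO (3 SNS-seq replicates), and treated cells for the same time in 10 µM PhenDC3 and 0.5% DMSO (2 replicates). PhenDC3 is a bisquinolinium compound that binds and stabilizes G-quadruplexes (G4), four-stranded structures of guanine runs. RNA-seq covered 3 replicates of each condition. All cells were of the same line and all received DMSO, and no label ties a replicate number to a shared culture, so p-values over the RNA samples measure the spread between these samples only.

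Mammalian origins fire at many more sites than any single cell uses, and active sites are often grouped in replicon clusters that replicate at about the same time. In ES cells origins are frequent near transcription start sites (TSS) and CpG islands, and most lie next to sequence able to fold into a G4. Within such a group, firing of a site generally keeps its close neighbours from firing in the same cell, so origins mapped side by side in a population need not fire together in any cell.

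The sequences that mark the clusters discussed here are shown 5′ to 3′, from the mm10 (GRCm38) reference genome, on the strand that carries the G-rich motif, with runs of at least 3 G in capitals. Motifs are hits of G4Hunter, which scores G-richness and G-skewness of a strand (here in windows of 25 bases, absolute score of at least 2), in the window that reaches 500 bp to each side of a region centre. Where a position is given, the sequence is the highest-scoring hit with its flanks at the region with the highest control rank in the cluster. The first set comes from clusters that kept all their regions in both PhenDC3 lists. These are the commonest motif of the 5S rRNA gene cluster on chromosome 8, found at 26 of its 39 regions and the commonest motif of the Gm52861 cluster on chromosome 6, found at 8 of its 15 regions.
5S rRNA genes: aggaGGGctggtGGGGGctctGGGGGaggt
Gm52861: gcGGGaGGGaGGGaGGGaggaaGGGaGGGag
The second set comes from clusters with no region that had a peak in both PhenDC3 lists. The Ppm1h motif lies at chr10:122681035-122681192 (plus strand) and the Men1 motif at chr19:6343734-6343815 (plus strand). No region of the Flg cluster had a G4Hunter hit, so the central 200 bases of its highest-ranked region outside the pseudogene Rplp0-ps1 are given, at chr3:93283590-93283789 (plus strand).
Ppm1h: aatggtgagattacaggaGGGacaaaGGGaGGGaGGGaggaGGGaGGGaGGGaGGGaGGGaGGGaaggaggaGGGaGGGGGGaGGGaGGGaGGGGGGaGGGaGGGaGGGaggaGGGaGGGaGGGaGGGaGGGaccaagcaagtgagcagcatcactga
Men1: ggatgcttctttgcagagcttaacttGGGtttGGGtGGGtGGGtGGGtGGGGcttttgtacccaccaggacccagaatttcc
Flg: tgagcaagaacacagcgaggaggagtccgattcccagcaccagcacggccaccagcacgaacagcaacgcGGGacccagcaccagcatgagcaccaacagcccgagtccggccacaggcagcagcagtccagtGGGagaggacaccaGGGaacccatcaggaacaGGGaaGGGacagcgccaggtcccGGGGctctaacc
The third set belongs to clusters that were partly kept: the largest over a gene-dense segment (Apc2-Rps15), those of a replication gene (Cdt1) and a developmental gene (Pax2), and Rai1, a locus shown in the study. The Apc2-Rps15 motif lies at chr10:80348993-80349081 (minus strand), the Cdt1 motif at chr8:122576422-122576502 (plus strand), the Pax2 motif at chr19:44756451-44756543 (minus strand) and the Rai1 motif at chr11:60105616-60105696 (plus strand).
Apc2-Rps15: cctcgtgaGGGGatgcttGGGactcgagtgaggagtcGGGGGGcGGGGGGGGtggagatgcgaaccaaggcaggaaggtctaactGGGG
Cdt1: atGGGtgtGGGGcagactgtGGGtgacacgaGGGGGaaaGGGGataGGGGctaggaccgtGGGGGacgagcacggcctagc
Pax2: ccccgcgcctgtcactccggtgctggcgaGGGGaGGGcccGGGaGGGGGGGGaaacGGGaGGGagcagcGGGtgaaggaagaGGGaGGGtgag
Rai1: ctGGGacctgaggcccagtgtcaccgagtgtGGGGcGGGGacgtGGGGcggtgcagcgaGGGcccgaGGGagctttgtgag
The Ppm1h stretch held 23 such G runs and scored 3, the highest score of the motifs shown with a position, in a cluster with no region in both PhenDC3 lists.

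The lists differed before any comparison. They held 120882, 81211 and 79377 nuclear peaks for control replicates 1 to 3, and 144103 and 102400 for PhenDC3 replicates 1 and 2. Median peak width was 227, 236 and 170 bp in the controls and 189 and 174 bp with PhenDC3. The peak names show an adapter filter on the reads of control 2 and PhenDC3 2 and none on the other 3 libraries. Control 3 stood apart from the other controls at the members: 92.7% of cluster regions had a peak in control 1, 87.1% in control 2 and 65.6% in control 3, against 87.5%, 84.5% and 77.0% of the regions outside clusters. The lists give no read counts, so the depth of each SNS-seq library is unknown, and the 95% Wilson intervals below cover counting error only. Neighbouring regions share a chromosome segment and are not replicates of a condition.

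Most clusters were small. There were 608 clusters of 5 regions, 321 of 6 and 164 of 7, while 414 had at least 8, 59 at least 15 and 28 at least 20, up to 39. The median cluster spanned 12.7 kb (quartiles 8.5 and 18 kb, longest 93.8 kb), and neighbouring centres lay a median of 1509 bp apart (quartiles 761 and 3500 bp). Together the clusters covered 21.7 Mb, or 0.819% of the sequenced genome. The limit of 5 regions cuts through a continuum. Chains of 4 (1308 chains) and of 5 (608 chains) had a median GC content of 53.7% and 55.0%, a centre within 2 kb of a TSS in 42.1% and 43% of regions, a peak in PhenDC3 replicate 1 in 57.1% and 56.7%, and in replicate 2 in 50.6% and 50.6%.

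**Figure D1:**
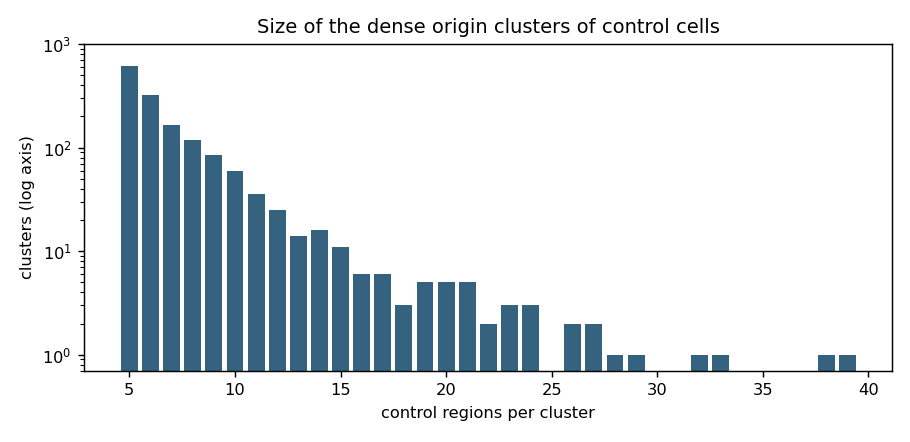
Number of clusters (log axis) against the number of control regions per cluster. Of the 1507 clusters, 608 have the minimum of 5 regions, and the largest has 39.

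Clusters were GC-rich and gene-dense, with few repeats. Around the centre (500 bp to each side), GC made up a median of 55.8% in clusters (quartiles 51.6 and 59.7%) and 48.9% elsewhere (45 and 54%), and the median soft-masked (repeat) share was 12.6% against 23.8%. Promoters, taken as the 2 kb upstream of a curated RefSeq TSS, held 21.3% of cluster regions and 10.9% of the others. This difference of 10.5 percentage points (95% interval 9.40 to 11.5) was significant in a logistic regression across regions with standard errors grouped by chain (two-sided Wald p = 1.47e-119, n = 73169 regions). A TSS lay in 1141 clusters (75.7%). A further 318 clusters lay over a gene body without a TSS, and 48 touched no annotated gene. In all, 1847 genes had a TSS in a cluster, 85.2 genes per Mb of cluster against 9.89 per Mb of the genome.

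A G4 was found at nearly the same share of regions in and outside clusters. Within 500 bp of the centre, 64.8% of cluster regions (95% interval 63.9 to 65.7%) and 67% of the others were G4-positive, a difference of -2.19 points (-3.50 to -0.883, Wald p = 0.000887, n = 73169 regions). The direction depended on the definition: it was 3.84 points at a G4Hunter threshold of 1.5 and 3.72 points within 250 bp, while without control 1 it was 0.261 and without control 2 -0.727. The spans of the clusters held 6.83 G4 per 10 kb, against 2.15 in the genome. The rule picks places dense in control regions, most of which are G4-positive in or outside clusters, so this density carries no test.

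The largest clusters fell into 2 kinds, tandem arrays of repeated sequence and gene-dense segments. The largest of all lay over the 5S rRNA genes at chr8:123536640-123630405, where the genes of the smallest ribosomal RNA stand in tandem. It spanned 93.8 kb with a median spacing of 2482 bp, and each of its 39 regions had a peak in all 5 lists. Its median fold enrichment over the RNase-treated library was 15.9, 7.5 and 8.46 in controls 1 to 3, and 22.3 and 8.74 in PhenDC3 1 and 2. PhenDC3 1 and control 1 were the high lists here, and the other 3 were alike. Of the 39 regions 36 were G4-positive, with only 5 different motifs among them, of which the first sequence above is the commonest. In this span 90.9% of all 31-base words recurred, and reads from such copies cannot be assigned to a copy with certainty.

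The arrays at Erdr1, an erythroid differentiation regulator gene next to the pseudoautosomal boundary of the sex chromosomes, gave another 2 of the 10 largest clusters. On chromosome Y, at chrY:90755228-90811062, 38 regions had 38, 34 and 33 peaks in controls 1 to 3 and 32 and 27 in PhenDC3 1 and 2, and only 3 were G4-positive. On chromosome X, at chrX:169985570-170022544, 26 regions had 26, 20 and 23 peaks in the controls and 22 and 18 with PhenDC3, with 4 G4-positive. The X and Y values may rest in part on the same reads, which was not tested. In these clusters 50.8% and 51.9% of the 31-base words recurred within the span of the cluster. Over all clusters the median was 0.461%, and 22 clusters with 287 regions lay above 10%. In those 22, 78.7% of regions had a peak in PhenDC3 1 and 67.2% in PhenDC3 2, against 60.7% and 51.9% in the other 1485.

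The other largest clusters lay over gene-dense segments of chromosomes 10, 11, 7 and 1. The third largest, at chr10:80292361-80360199, reached across Apc2 (a neuronal relative of the tumour suppressor APC), Reep6, Plk5 and Rps15 (a protein of the small ribosomal subunit). Its 33 regions had 31, 31 and 21 peaks in controls 1 to 3, and 22 and 17 in PhenDC3 1 and 2, with 16 present in both. At chr11:115780228-115864042, over Llgl2 (a cell polarity gene), Myo15b, Caskin2 and Tsen54 (a subunit of the tRNA splicing endonuclease), 32 regions had 30, 28 and 24 peaks in the controls and 20 and 21 with PhenDC3. At chr7:45759844-45834924, over Cyth2, Grwd1 (a ribosome biogenesis factor), Kcnj14 and Lmtk3, 29 regions had 27, 28 and 18, then 16 and 14. In these 3 clusters the PhenDC3 counts lay at most 1 region above the count of control 3, the lowest control. The other gene-dense segments among the 10 largest, over Atp5d and Cirbp, Fdxr and Grin2c, Inha and Chpf, and Nfic and Dohh, held 26 to 28 regions, of which 11 to 15 had a peak in both PhenDC3 lists.

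**Figure D2:**
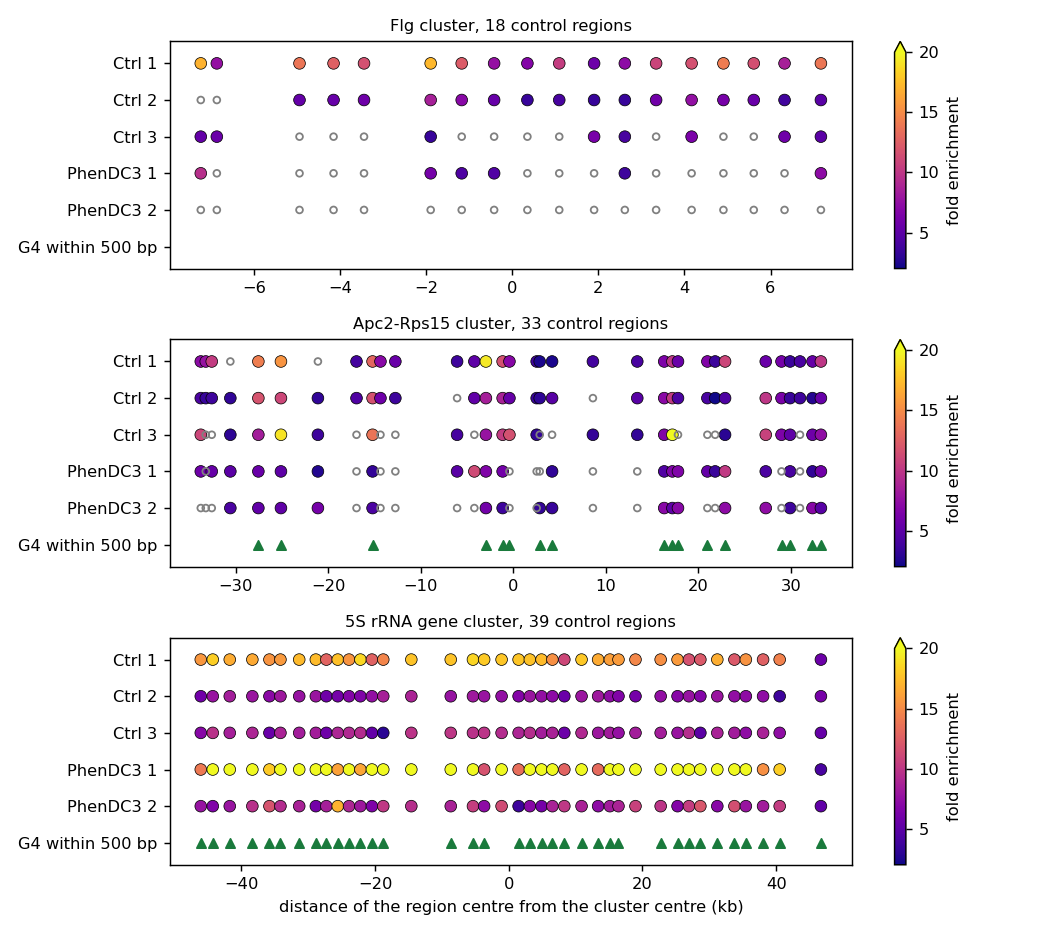
Peaks at each control region of 3 clusters, by distance of the region centre from the cluster centre (kb, horizontal axis) and by list (vertical axis). Filled circles mark a peak, coloured by fold enrichment over the RNase-treated library (colours end at 20), small open circles mark no peak, and triangles mark regions with a G4 within 500 bp. In the Flg cluster PhenDC3 2 has no peak and no region has a G4, in the Apc2-Rps15 cluster 16 of 33 regions have a peak in both PhenDC3 lists, and in the 5S rRNA gene cluster all 39 do.

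Which cluster regions kept a peak with PhenDC3 was asked next. Each PhenDC3 list is a single library, so a test across regions compares these lists and not the conditions. In PhenDC3 1, 61.1% of cluster regions (95% interval 60.2 to 62.1%) and 58.3% of the others had a peak, 2.88 points more in clusters (1.69 to 4.07, Wald p = 2.7e-06, n = 73169 regions). Among all control regions 58.7% were called. In PhenDC3 2 the order was the opposite: 52.3% (51.4 to 53.2%) against 62.8%, 10.5 points lower in clusters (difference -10.5, from -11.7 to -9.24, Wald p = 6.22e-65, n = 73169 regions), with 61.2% over all control regions. A peak in both lists was found at 42.8% of cluster regions (all control regions 45.5%), and in neither at 29.4% (all control regions 25.6%). Taken over all regions, the 2 treated replicates thus disagreed on the direction.

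The higher share in PhenDC3 1 did not survive every comparison. Against isolated regions alone (chains of 1) it was 0.847 points, and with the number of control lists, width, control rank, GC content and G4 as covariates it was -0.634 points, neither past the threshold of 0.05. Without control 3 it was 1.18 points, also not past the threshold, whereas without control 1 it was 10.4 and without control 2 6.07 points. In PhenDC3 2 the lower share shrank to -2.53 points with the same covariates (Wald p = 2.89e-07, n = 73169 regions) and to -4.08 points without control 2. It did not pass the threshold without control 1 (-1.42 points), where a peak in all 3 controls was required (-1.10 points), or in the stronger part of each list (0.632 points).

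Within clusters, presence in PhenDC3 1 was higher the larger the cluster. It was 56.7% (54.9 to 58.4%) in clusters of 5 regions, 59.0% in those of 6 or 7, 62.7% in those of 8 to 11 and 69.5% (67.4 to 71.5%) in those of 12 or more. In PhenDC3 2 the same sizes gave 50.6%, 51.3%, 53.6% and 54.9% (52.7 to 57.2%), while isolated regions stood at 70.2% in PhenDC3 2 and at 60.3% in PhenDC3 1. In PhenDC3 1 the intervals of the smallest and the largest clusters lay well apart. In PhenDC3 2 they barely missed each other, with an upper limit of 52.3% in clusters of 5 and a lower limit of 52.7% in those of 12 or more. These intervals treat the regions of a cluster as independent, so the rise in PhenDC3 2 is not established. The tandem arrays of the 5S rRNA genes and of Erdr1 belong to the largest class, and their part in this was not tested. Among clusters of at least 8 regions, the difference from the remaining regions was 7.28 points in PhenDC3 1 and -7.58 points in PhenDC3 2.

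**Figure D3:**
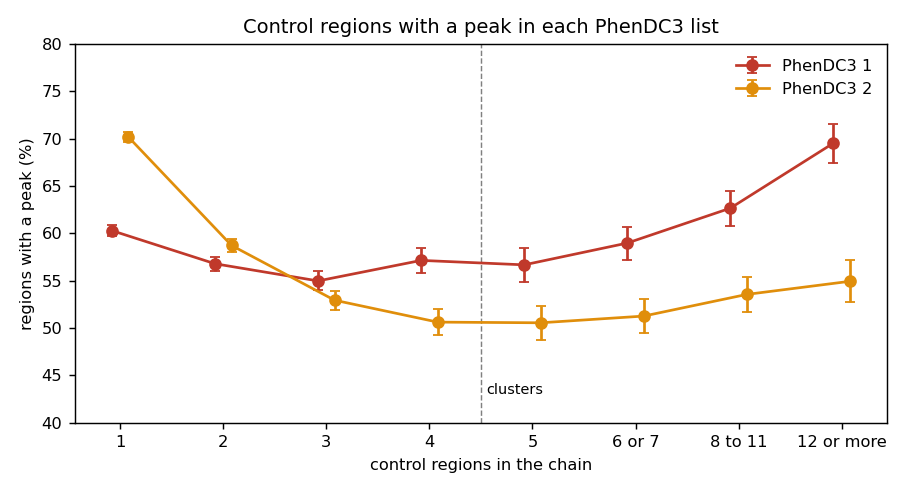
Share of control regions with a peak (vertical axis, %, from 40 to 80) in PhenDC3 1 and PhenDC3 2, by the number of regions in the chain. Bars are 95% Wilson intervals, and chains right of the dashed line are clusters. PhenDC3 1 runs from 56.7% in clusters of 5 to 69.5% in the largest, and PhenDC3 2 drops from 70.2% at isolated regions to 50.6% in clusters of 5.

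To set the PhenDC3 lists beside a control that had not chosen the members, clusters were rebuilt from each pair of controls and read in the remaining lists. Clusters of controls 1 and 2 (891 clusters, 6043 regions) had a peak in control 3 at 54.5% of regions, in PhenDC3 1 at 64.9% and in PhenDC3 2 at 54.2%. Clusters of controls 1 and 3 (452 clusters, 3004 regions) had a peak in control 2 at 78%, in PhenDC3 1 at 72.6% and in PhenDC3 2 at 69.2%. Clusters of controls 2 and 3 (375 clusters, 2505 regions) had a peak in control 1 at 87.6%, in PhenDC3 1 at 72.3% and in PhenDC3 2 at 75.2%. Both PhenDC3 lists were therefore below the held-out control in the last 2 pairings, and in the first PhenDC3 1 was above it and PhenDC3 2 within the intervals of it (53.0 to 55.5% and 53.2 to 55.7%). Regions outside the clusters were likewise below the held-out control in both PhenDC3 lists in the last 2 pairings, with 76.3% in control 2 against 66.5% and 73.3%, and 80.3% in control 1 against 61.9% and 76.7%. The lower shares there were thus not particular to clusters.

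The mean of the 2 PhenDC3 shares minus the share in the held-out control was 5.07, -7.04 and -13.8 points in the 3 pairings, or -5.25 ± 9.56 points (SD, n = 3). For regions outside the clusters the same quantity was -2.83, -6.39 and -11.0 points, or -6.75 ± 4.11 points (SD, n = 3), so the mean for clusters lay within the spread of the mean for the other regions. The pairings share control lists, and for clusters the SD exceeds the mean. The difference between cluster regions and other regions also varied between the pairings. In the held-out control it was -13.4 points in control 3, 1.64 in control 2 and 7.27 in control 1. In the same pairings it was 1.18, 6.07 and 10.4 in PhenDC3 1, and -12.1, -4.08 and -1.42 in PhenDC3 2. Each held-out control was read in 1 pairing only, so library and pairing cannot be told apart for it. Control 3 and PhenDC3 2 gave alike values in clusters of controls 1 and 2, though they belong to different conditions and differ in the adapter filter. The part of library preparation in these differences was not tested.

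**Figure D4:**
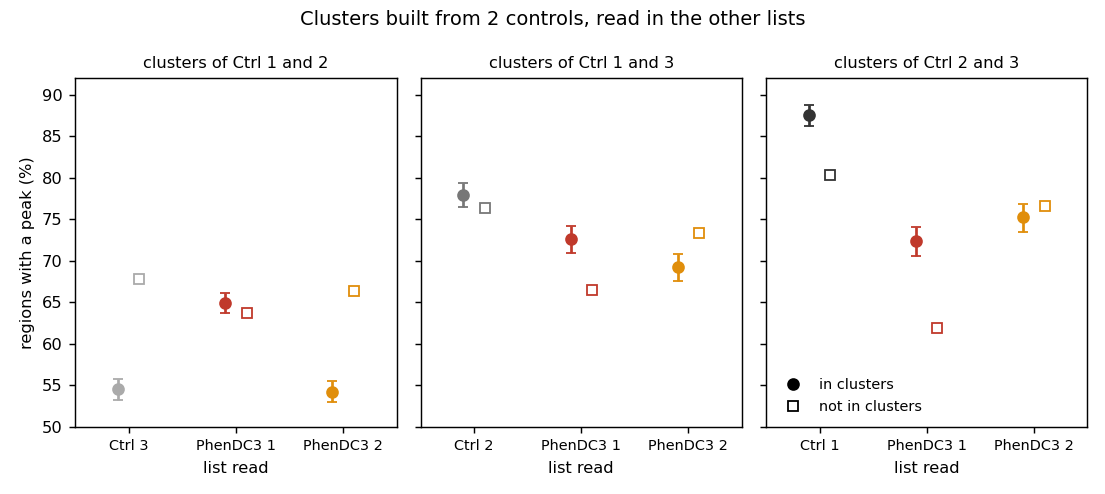
Share of regions with a peak (vertical axis, %, from 50 to 92) for regions built from 2 controls and read in the held-out control and in both PhenDC3 lists. Filled circles are cluster regions, open squares regions outside clusters, bars 95% Wilson intervals. In the left panel control 3 and PhenDC3 2 both lie lower in clusters (54.5% and 54.2%) than outside (67.9% and 66.3%).

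The clusters built from the 2 PhenDC3 lists by the same rule numbered 697 and held 7.46% of their 63038 regions, within the range of the control pairs (11.3%, 6.40% and 5.61%). Of their regions, 72.2% had a peak in control 1, 64.6% in control 2 and 62.1% in control 3, and regions outside these clusters had 56.1%, 49.9% and 52.1%. Dense clusters of treated cells were thus found in each control more often than sparse treated regions.

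Cluster regions with a G4 were kept more often than those without. In PhenDC3 1, 69.8% of G4-positive and 45.1% of G4-negative cluster regions had a peak, and in PhenDC3 2 63.3% and 32.1%. Outside clusters the same shares were 65.7% and 43.2% in PhenDC3 1 and 71.6% and 44.8% in PhenDC3 2. Untreated held-out controls had the same order in clusters of the other controls: 59.1% and 45.1% in control 3, 81.7% and 69.1% in control 2, and 91.0% and 79.6% in control 1. In the clusters of controls 1 and 2, PhenDC3 1 had 71.5% and 51.3%, and PhenDC3 2 63.8% and 34.6%. In those of controls 1 and 3, PhenDC3 1 had 77.7% and 60.4%, and PhenDC3 2 77.4% and 49.9%. In those of controls 2 and 3, PhenDC3 1 had 78.1% and 59.0%, and PhenDC3 2 83.6% and 55.8%. The order was thus not particular to treated cells. In each pairing the 2 shares lay farther apart in both PhenDC3 lists than in the held-out control, and the cause of this was not tested. With the number of G4, presence in PhenDC3 1 went from 45.1% (0 G4) to 69.0% (1), 70.9% (2) and 70.9% (3 or more), and in PhenDC3 2 from 32.1% to 59.5%, 65.8% and 72.2%. From 1 G4 on, the shares in PhenDC3 1 were close to each other, while those in PhenDC3 2 were higher at each step. Beside the other covariates, a G4 carried an odds ratio of 2.57 (95% interval 2.48 to 2.66) in PhenDC3 1 and 3.36 (3.24 to 3.49) in PhenDC3 2 over all control regions.

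GC content separated the 2 treated lists at the members, but not in the clusters of every control pair. Over the GC quartiles of all control regions (limits 45.6%, 49.9% and 55.4%), 5607 of the 10740 cluster regions lay in the highest. Presence of cluster regions in PhenDC3 1 went from 39.6% in the lowest quartile to 48.1%, 60.4% and 66.6%, and in PhenDC3 2 it was 49.1%, 49.3%, 55.0% and 51.7%. Outside clusters the same quartiles gave 46.7%, 60%, 66.4% and 62.9% in PhenDC3 1, and 67%, 65.9%, 65.2% and 49.3% in PhenDC3 2. In the highest quartile cluster regions were thus above the others in both lists, and in the other 3 they were below them in both lists. Within each quartile the 2 treated lists thus had the same direction, unlike over all regions. Over all control regions, with the other covariates, the odds ratio per 10 points of GC was 1.37 (1.33 to 1.41) in PhenDC3 1 and 0.534 (0.519 to 0.549) in PhenDC3 2. Held-out controls, each read in other clusters, also differed. In clusters of controls 1 and 2, control 3 had a peak at 61.3% of regions in the lowest and 49.3% in the highest quartile. Control 1 in clusters of controls 2 and 3 had 72.8% and 93.6%. For the same 2 quartiles, PhenDC3 1 had 49.7% and 68.0% in clusters of controls 1 and 2, and PhenDC3 2 52.8% and 52.4%. Clusters of controls 1 and 3 gave 55.9% and 79.5% in PhenDC3 1, and 59.8% and 74.0% in PhenDC3 2. Those of controls 2 and 3 gave 44.8% and 81.3%, and 53.6% and 81.6%. In the last 2 pairings both treated lists were thus higher at high GC.

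Distance to a TSS divided PhenDC3 2 again. Within 2 kb of a TSS lay 4319 cluster regions (40.2%), against 21.1% of the others. There, 56.6% of cluster regions had a peak in PhenDC3 1 and 46.9% in PhenDC3 2, and farther away 64.2% and 55.9%. Compared with other regions at the same distance class, cluster regions were 3.81 points higher near a TSS and 4.46 higher away from it in PhenDC3 1, but 2.85 points higher near and 11.8 lower away (-11.8) in PhenDC3 2. This contrast of 14.7 points was significant for PhenDC3 2 (interaction term, Wald p = 3.63e-35, n = 73169 regions, adjusted over 4 interactions 1.45e-34) and not for PhenDC3 1 (-0.641 points, adjusted p = 0.472). In clusters of controls 1 and 2, held-out control 3 had 3.0 points near a TSS and -14.4 away from it. The other held-out controls had -2.41 and 0.087 (control 2) and 1.92 and 7.27 (control 1).

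Control rank separated the regions of a cluster more than position did. The outermost regions had a peak in PhenDC3 1 at 59.4% and the inner ones at 61.8%, and in PhenDC3 2 at 54.4% and 51.5%. The highest-ranked region of each cluster (by the percentile of −log10 p in its strongest control) was kept at 79.8% and 74.2%, and the lowest-ranked at 42.9% and 31.9%. Regions with a peak in all 3 controls were kept at 75.3% and 77.7%, and those in 2 controls at 49.3% and 31.2%. By annotation, promoter regions of clusters were kept at 53.6% and 46.7%, exonic at 65.5% and 42.7%, intronic at 62.9% and 55.4%, and intergenic at 62.0% and 58.7%. Where a PhenDC3 peak was present, its median fold enrichment was 5.36 in PhenDC3 1 and 4.84 in PhenDC3 2, against 5.31 and 5.07 outside clusters. By the percentile of −log10 p within the list, the median peak of a cluster region stood at 71.9 in PhenDC3 1 and 67.6 in PhenDC3 2, against 63.8 and 64.7 outside clusters.

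Whole clusters were rarely kept or lost. The median cluster kept 60% of its regions in PhenDC3 1 (quartiles 42.9 and 80%) and 50% in PhenDC3 2 (40 and 66.7%). All regions were kept in 85 clusters in PhenDC3 1, in 47 in PhenDC3 2 and in 19 in both, and none in 22, 39 and 6 (in neither list). At least 5 regions had a peak in both lists in 266 clusters (17.7%), whatever their spacing. More regions were present in PhenDC3 1 than in PhenDC3 2 in 769 clusters, fewer in 339 and as many in 399.

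Few treated peaks were new inside the clusters. Of the 11049 peaks of PhenDC3 1 in the cluster spans 1922 (17.4%) overlapped no control peak, and of the 7498 of PhenDC3 2 536 (7.15%), while over the whole lists the shares were 49.8% and 35.7%. The rule picks places dense in control peaks, which leaves less room for new ones there, so these shares carry no test. Both lists shared 331 new regions, in 280 clusters.

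The 3 clusters of at least 8 regions with the lowest share of regions in both PhenDC3 lists were over Flg, Men1 and Ppm1h. The cluster over Flg, the gene of the epidermal protein filaggrin with its tandem coding repeats, lay at chr3:93278158-93293014 with a median spacing of 740 bp. Its 18 regions had 18, 16 and 8 peaks in controls 1 to 3, 6 in PhenDC3 1 and 0 in PhenDC3 2. Its leftmost regions lie over the pseudogene Rplp0-ps1, a copy of a ribosomal protein gene, and the others in the repeats of Flg. Its median fold enrichment was 11.5 in control 1, 5.51 in control 2, 5.50 in control 3 and 5.32 in PhenDC3 1. Of its 31-base words 80.5% recurred. At Men1 (the tumour suppressor menin) and Map4k2, chr19:6327185-6346964, 10 regions had 8, 5 and 8 control peaks, then 3 and 1. At the start of Ppm1h, a phosphatase gene, at chr10:122669293-122681686, 8 regions had 8, 8 and 7 control peaks, then 0 and 1, although 6 were G4-positive. A G4-free array and a cluster with G4 at most of its regions thus both had no region in both PhenDC3 lists.

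The clusters with the highest shares were, beside the 5S rRNA genes, the repeat array over Gm52861 and Gm52862 and a cluster over Gm36405. At Gm52861, chr6:47739169-47778658, each of the 15 regions had a peak in all 5 lists, 12 were G4-positive, and 90.3% of the 31-base words recurred. At Gm36405, chr5:148800068-148826711, 8 regions had 8, 6 and 8 control peaks and 8 and 8 with PhenDC3, all 8 were G4-positive, each with its own motif, and only 0.488% of the words recurred.

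Of all 26180 genes with a TSS, 1847 (7.1%) had one in a cluster. Genes of the lists were found in clusters as follows, in small counts that were not tested against that share. Of 19 pluripotency genes 2 had a TSS in a cluster, Tbx3 and Klf4. Of 38 replication genes 2 did, Cdt1 and Pold1, of 48 developmental transcription factors 10, of 39 Hox genes 4, and of 7 loci shown in the study Rai1. At Tbx3, a transcription factor of the naive pluripotency network, at chr5:119651073-119682163, 11 regions had 9, 8 and 10 control peaks, and 6 and 8 with PhenDC3. At Klf4, a reprogramming factor, at chr4:55530088-55533606, 6 regions had 6, 5 and 4, then 4 and 3. Both clusters kept a part of their regions, within or just below the control range.

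At Cdt1, which loads the MCM helicase at origins, chr8:122550099-122577476 also holds Aprt, a purine salvage enzyme gene, and Piezo1. Its 12 regions had 11, 11 and 8 control peaks, and 6 and 4 with PhenDC3. At Pold1, the catalytic subunit of DNA polymerase delta, chr7:44529762-44553536, 10 regions had 9, 7 and 9, then 8 and 6. Both PhenDC3 counts were below every control at Cdt1, and at Pold1 that of PhenDC3 2 alone was.

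Among developmental regulators the named clusters had 6 to 10 regions. At Pax2, a kidney and eye regulator, chr19:44741795-44757745, all 10 regions were G4-positive, with 10, 8 and 7 control peaks, then 6 and 7. At Cdx2, a trophoblast factor, chr5:147305824-147316574, 6 regions had 5, 6 and 1, then 2 and 2. At Rai1, chr11:60104238-60115985, 7 regions had 7, 7 and 2, then 4 and 2. At Hoxc8, chr15:102977337-102999217, 8 regions had 7, 6 and 6, then 6 and 7, and at Hoxd3 to Hoxd9, chr2:74696805-74714230, 6 regions had 6, 5 and 3, then 2 and 4. At Cdx2 and Rai1 control 3 had no more peaks than either PhenDC3 list, and at Hoxc8 all 5 lists were alike.

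**Figure D5:**
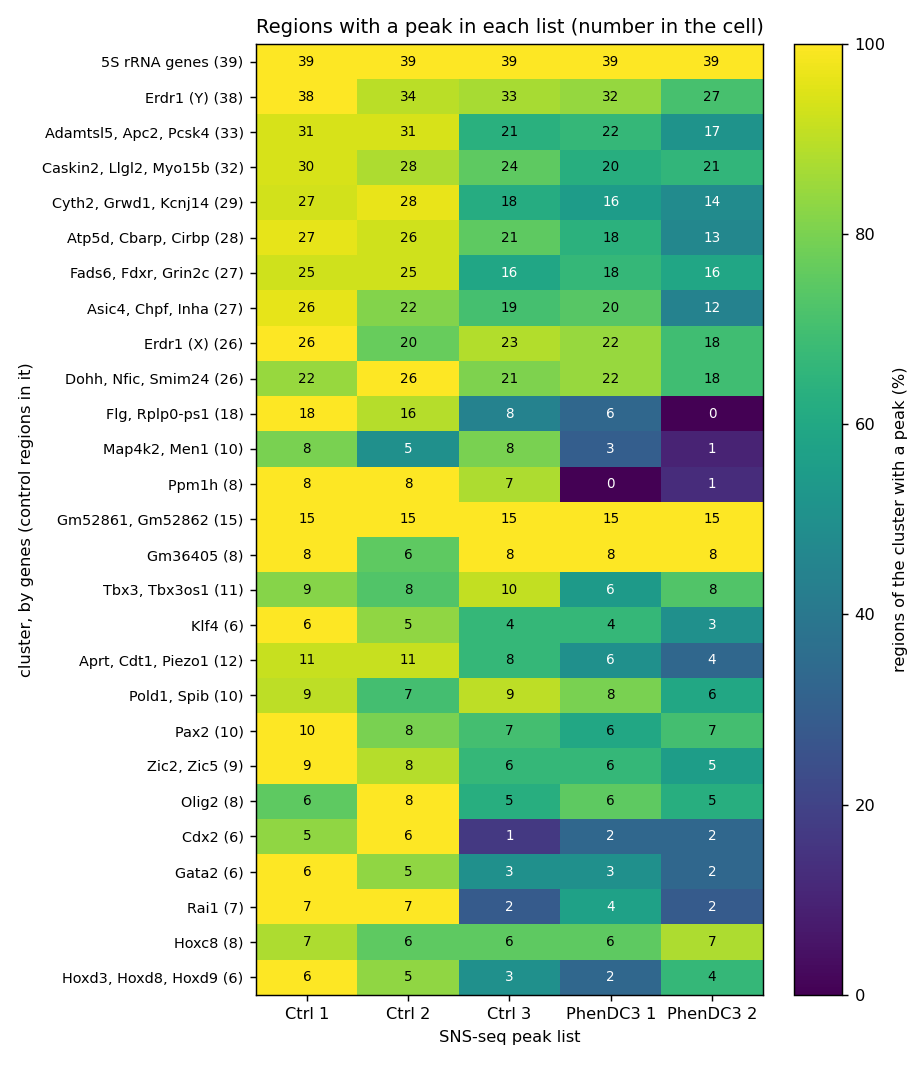
Number of regions with a peak in each of the 5 lists (columns) for clusters named by rule (rows, with leading genes and the number of control regions). Colour gives the share of the regions of the cluster (0 to 100%). The 5S rRNA gene and Gm52861 clusters are complete in every list, the Flg cluster has 0 of 18 regions in PhenDC3 2, and the Ppm1h cluster 0 of 8 in PhenDC3 1.

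Transcription of the genes in clusters was compared last. The ES cell markers were present: 7 of 7, among them Pou5f1, Sox2 and Nanog, exceeded 1 CPM (counts scaled to a common library size), with a summed level of 6253 to 6675 CPM in controls and 7219 to 8441 with PhenDC3. Fibroblast markers summed to 8.42 to 8.55 and 6.03 to 8.67 CPM (3 of 8 above 1 CPM), and markers of differentiating cells to 23.8 to 38.3 and 47.0 to 58.1 CPM (6 of 7 above 1 CPM). The sums of the ES cell and of the differentiating markers were higher in every PhenDC3 sample than in any control. A change in the number of cells of a type and a change in RNA per cell cannot be told apart in bulk samples. The part of differentiating cells in the results below was not tested. Libraries held 22232014 to 29486502 counts.

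Cluster genes were more often transcribed than others. Of the 1847 cluster genes 1711 were in the count table and 1358 passed the filter on low counts (79.4%, against 58.0% of all 24079 genes). Their median control level, per exon length, was 3.22 RPKM, reads scaled to gene length and library size (quartiles 0.355 and 14.8), against 0.411 (0 and 8.31) for the other genes. With PhenDC3, 219 cluster genes rose (16.1% of those tested, against 18% of all tested genes) and 318 fell (23.4%, against 18.7%), by edgeR's quasi-likelihood test with Benjamini-Hochberg adjustment over all 13972 genes. Their median log2 fold change was -0.07, and that of all genes 0.01.

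The balance shifted with the size of the cluster. In clusters of 5 regions 86 of 398 tested genes rose and 82 fell, in those of 6 or 7 68 and 84 of 391, in those of 8 to 11 42 and 91 of 354, and in those of 12 or more 23 and 61 of 215. The median log2 fold change in these classes was 0.05, -0.04, -0.12 and -0.18. The difference between the classes was not tested.

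Among cluster genes averaging 1 CPM or more, Gbx2 fell most. Gbx2, a homeobox factor of naive ES cells, had 26.2, 34.0 and 27.5 CPM in controls and 0.868, 0.333 and 0.798 with PhenDC3, a log2 fold change of -5.42 ± 0.28 (SE, edgeR adjusted p = 2.63e-05). Pou3f1, a neural POU factor, went from 7.46, 14.4 and 15.5 CPM to 0.694, 0.583 and 1.20 (log2 fold change -3.90, adjusted p = 0.000144). Myrf, a membrane-bound transcription factor of myelination, fell from 87.7, 94.3 and 116 CPM to 7.71, 3.87 and 10.2 (-3.76, adjusted p = 8.29e-05). Every PhenDC3 sample lay far below every control for these 3. Tal1 and Bcl11a (blood regulators), Crmp1 and Hist1h1d followed, with log2 fold changes of -3.27 to -2.86.

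The largest rises were Pknox2, Ggt7, Gm8994, Eps8l2, Ppp2r2c, Tmc7, 6030419C18Rik and Tshz1, between 2.74 and 2.18 on the log2 scale. Ppp2r2c, a regulatory subunit of protein phosphatase 2A, had 6.34, 6.51 and 7.42 CPM in controls and 39.2, 40.3 and 27.0 with PhenDC3 (2.40 ± 0.18, adjusted p = 6.86e-05). Eps8l2, an actin regulator, had 6.38, 8.87 and 8.11 CPM, then 37.6, 53.0 and 43.9 (2.53 ± 0.18, adjusted p = 6.77e-05). Their clusters had 5 regions each.

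Both pluripotency genes in clusters rose and both replication genes fell. Tbx3 had 116, 131 and 92.4 CPM in controls and 404, 441 and 354 with PhenDC3 (log2 fold change 1.82, edgeR adjusted p = 9.95e-05). Klf4 had 154, 177 and 168, then 299, 308 and 273 CPM (0.82, adjusted p = 0.000762). Cdt1 had 115, 181 and 158 CPM, then 90.7, 94.0 and 84.9 (-0.75, adjusted p = 0.00745), and its neighbour Aprt fell by 1.01 on the log2 scale (adjusted p = 0.000229). Pold1 had 123, 171 and 185 CPM, then 102, 92.8 and 104 (-0.67, adjusted p = 0.0096). No PhenDC3 sample overlapped the controls for these 5 genes. Of the developmental transcription factors in clusters, Gata2, a blood regulator, rose by 2.09 on the log2 scale (adjusted p = 0.000258). Cdx2, Otx1, Sox1 and Zic2 did not pass the test, and Dlx2, Olig2, Pax2 and Pitx1 were too low to be tested, as were the 4 Hox genes.

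In the Apc2-Rps15 cluster Plk5 and Reep6 fell by 1.30 and 1.12 on the log2 scale (adjusted p = 0.000907 and 0.00253), Apc2 and Adamtsl5 rose by 1.13 and 1.06 (0.0226 and 0.0153), and Rps15, at 1289 to 1655 CPM in controls and 1148 to 1415 with PhenDC3, gave -0.26 (adjusted p = 0.16). Genes of this cluster thus changed in both directions. In the Llgl2 cluster Caskin2, Llgl2 and Tsen54 rose by 1.07, 0.73 and 0.46 (adjusted p = 0.000919, 0.00535 and 0.0495). Fads6 rose by 1.98 (adjusted p = 0.0013), Grwd1 fell by 0.52 (adjusted p = 0.0051), and Dohh and Atp5d fell by 0.53 and 0.72 (adjusted p = 0.0129 and 0.0176).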

How the data were processed

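SNS-seq peak lists (3 control, 2 PhenDC3) and RNA-seq counts (3 and 3 libraries) of CGR8 cells were used. Per the methods and the submitters' processing notes, the authors mapped SNS-seq reads to mm10 with Bowtie2 2.2.5 and called peaks with MACS2 2.1.0 in each replicate against 1 RNase-treated library per condition (not analysed here), keeping peaks that overlap a SICER region. The deposited lists give each peak as a fold enrichment (a ratio to that library) and, from the authors' caller, a −log10 p-value. For RNA-seq the authors deposited raw counts per gene (TopHat2 2.1.1, HTSeq 0.6.1p1); strand setting and annotation are not given in the sources used here. A deposited table of the authors' own DESeq2 comparison (fold changes and p-values) and a table of normalized pseudo-counts were not used.

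Members, gene lists and rules were chosen with earlier results of these data known. Mitochondrial peaks (7 to 16 per list) were left out. A region's value in a list is its highest peak, and its control rank is the percentile of −log10 p within the list. G4 were predicted with G4Hunter on both strands (window 25, threshold 2, within 500 bp of the region centre), and promoters are the 2 kb upstream of curated RefSeq TSS (GRCm38). Shares of regions were compared by logistic regression in statsmodels 0.14.6 (two-sided Wald test, standard errors grouped by chain, threshold 0.05), tested on simulated data. Counts were tested with edgeR 4.0.16 (robust quasi-likelihood, relative log expression, filterByExpr, Benjamini-Hochberg adjustment over all genes, adjusted p of at most 0.05), tested on simulated data, with DESeq2 1.42.0 as an alternative; symbols were matched by Entrez number. Clusters named are the 10 with the most regions, the 3 lowest and 3 highest by share in both PhenDC3 lists among those of at least 8 regions, and up to 6 per gene list. Genes named are those of these clusters, listed genes, and the 8 largest rises and falls among cluster genes called, averaging 1 CPM or more, whose samples did not overlap. Alternatives varied the overlap, peak threshold, peak numbers, chain distance, cluster size, controls, G4 and TSS definitions, covariates, normalization and filter. Leaving out tandem arrays was added after the data were seen. Some items that these rules name are not reported here.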

Additional observations from a re-analysis of the deposited data

Results flagged for a closer look

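The 3 differences between kinds of cluster region below were set apart by a test of the interaction itself (logistic regression across regions, standard errors grouped by chain, adjusted over 4 tests). In PhenDC3 2, cluster regions exceeded other regions by 2.85 points within 2 kb of a TSS and stood at -11.8 points farther away, a contrast of 14.7 points (adjusted p = 1.45e-34). In PhenDC3 2, the difference was -8.37 points at G4-positive and -12.7 at G4-negative regions, a contrast of 4.28 points (adjusted p = 0.00703). In PhenDC3 1, it was 4.18 points at G4-positive and 1.88 at G4-negative regions, a contrast of 2.31 points (adjusted p = 0.0334). Each rests on a single PhenDC3 library. In clusters of controls 1 and 2, the untreated control 3 gave 3.0 points near a TSS and -14.4 away from it, and -12.6 and -14.1 points at G4-positive and G4-negative regions. In the clusters of the other control pairs, the held-out control 2 gave -2.41 points near a TSS and 0.087 away from it, and 3.78 and -3.31 points at G4-positive and G4-negative regions. Control 1 gave 1.92 and 7.27 by TSS, and 5.65 and 10.9 by G4. Each held-out control was read in a different set of clusters, so library and set cannot be told apart. By G4, PhenDC3 1 gave 2.64 and -0.714 points in clusters of controls 1 and 2. It gave 7.36 and 3.34 in those of controls 1 and 3, and 9.20 and 13.1 in those of controls 2 and 3. PhenDC3 2 gave -9.92 and -15.0, -1.51 and -9.73, and -0.439 and -3.91 in the same order. Across the untreated readings the G4 contrast varied in size and direction by more than the 4.28 and 2.31 points above.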

How the results depend on the processing

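The number of clusters followed the definition: 267 in the stronger part of each list, 208 with a peak in all 3 controls, 2815 with at least 4 regions, 414 with at least 8, and 375 to 891 when a control was left out. For PhenDC3 1 the difference of 2.88 points became 0.847 against isolated regions, -0.634 with covariates, and 1.18 to 10.4 when a control was left out. For PhenDC3 2 the difference of -10.5 points became 0.632 in the stronger part of each list, -1.10 with a peak in all 3 controls, and -12.1 to -1.42 when a control was left out. Other settings moved these values without ending a call: with equal numbers of peaks they were 7.92 and -7.04, and with a PhenDC3 peak allowed within 500 bp 9.95 and -3.87. The G4 difference of -2.19 points became 3.84 at a threshold of 1.5, 3.72 within 250 bp, 0.756 in the stronger part, -0.174 with Quadparser, -0.927 with equal numbers of peaks, -0.848 with a peak in all 3 controls, -1.21 with at least 8 regions, and -2.15 to 0.261 when a control was left out. The cause of these shifts was not tested. The promoter difference kept its sign and its side of the threshold in each alternative run, and leaving out tandem arrays ended no call. With the replicate number as a block, 330 cluster genes rose and 434 fell, against 219 and 318 without it. The same-numbered RNA samples correlated at 0.0895, 0.543 and 0.403 in their deviations from the group means. Not all were over 0.1, so the numbers were not taken to pair the samples, although each sample correlated best with its own number. The count columns also carry consecutive leading numbers for the control and PhenDC3 samples of each replicate number. Whether such samples shared a culture or a batch is not stated. Leaving out an RNA library gave 151 to 236 rises and 214 to 329 falls. Peak lists without read counts limit the SNS-seq comparison to presence, with 1 library behind each PhenDC3 share.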

Other observations

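Clusters were unevenly spread over the chromosomes. Chromosome 11 held 176 clusters (1.44 per Mb), chromosome 7 164 (1.13 per Mb) and chromosome 17 123 (1.29 per Mb), while chromosome 1 held 39 (0.200 per Mb) and chromosome X 7 (0.0409 per Mb). The share of control regions that lay in clusters was highest on chromosome Y, at 31.1% (68 of 219 regions, 38 of them in the Erdr1 array). It was 26.1% on chromosome 17 and 5.16% on chromosome X. Cluster regions had a higher share of peaks than other regions on 16 of 21 chromosomes in PhenDC3 1, and on 1 of 21, chromosome X, in PhenDC3 2.

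Cluster regions within 2 kb of the TSS of genes that rose had a peak in PhenDC3 1 at 48.8% (95% Wilson interval 44.7 to 53.0%), those near genes that fell at 53.6% (49.9 to 57.3%), and those near tested genes not called at 56.8% (54.6 to 59.1%). In PhenDC3 2 the same groups had 45.3%, 47.7% and 45.8%, with overlapping intervals.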
